A study of Mus musculus with 54 samples.

Results

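The genes described here are 7 transcription factor genes that mark or specify neurons of the suprachiasmatic nucleus (SCN), *Lhx1*, *Six3*, *Six6*, *Zfhx3*, *Zfhx4*, *Foxd1* and *Rxrg*. They were chosen by symbol among the 30031 genes of the count table, and all 7 passed the filter on low counts, along with 18941 genes in all. RNA came from laser-captured SCN of male C3H/HeH mice aged 10 to 12 weeks and kept in 12 hr of light and 12 hr of darkness, at zeitgeber times (ZT) 2, 6, 10, 14, 18 and 22, where ZT2, ZT6 and ZT10 lie in the light. Each timepoint had 3 replicates (A, B and C), each a pool of tissue from 5 mice, and no group was treated or mutant. Each replicate had 3 technical replicates, as the sample titles name them, and the deposited table has these combined into 18 columns.

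The SCN is a small paired nucleus of the anterior hypothalamus, made mostly of GABAergic neurons, that sets daily rhythms of behaviour and physiology. Six3 and Six6 are homeodomain proteins related to fly sine oculis that pattern the anterior forebrain and eye, and Lhx1 is a LIM-homeodomain protein that acts in SCN neurons to keep up the expression of signalling peptides. Zfhx3 and Zfhx4 are very large proteins with zinc fingers and homeodomains, Foxd1 is a forkhead protein of the early hypothalamic field, and Rxrg is retinoid X receptor gamma, a nuclear receptor that pairs with retinoic acid, thyroid hormone and other receptors.

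*Six3* and *Six6* had the smallest q of the 7 genes in the test for change with time, and the 250 bases before their start sites are shown because both rose from ZT2 to ZT6 and fell from ZT10 to ZT14, though they differed at other steps. The sequences are from RefSeq on GRCm38.p6, written 5′ to 3′ on the plus strand, with the CCAAT box in capitals, as CCAAT or as its reverse complement ATTGG. *Six3* (chr17:85620584-85620833) and *Six6* (chr12:72939632-72939881) read as follows.
Six3: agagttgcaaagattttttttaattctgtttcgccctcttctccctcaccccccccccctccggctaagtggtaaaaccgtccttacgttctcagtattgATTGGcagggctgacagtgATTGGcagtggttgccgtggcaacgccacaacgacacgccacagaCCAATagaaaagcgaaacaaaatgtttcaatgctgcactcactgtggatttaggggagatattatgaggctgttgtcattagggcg
Six6: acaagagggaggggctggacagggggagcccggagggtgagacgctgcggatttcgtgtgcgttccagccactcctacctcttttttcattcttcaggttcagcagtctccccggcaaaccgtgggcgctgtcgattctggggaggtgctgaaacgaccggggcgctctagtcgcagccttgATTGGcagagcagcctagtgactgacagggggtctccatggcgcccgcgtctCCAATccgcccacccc

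The *Six3* window held 3 CCAAT boxes, at 150 to 146 and 131 to 127 bases before the start on the minus strand and at 86 to 82 bases on the plus strand. The *Six6* window held 2, at 68 to 64 bases on the minus strand and at 16 to 12 bases on the plus strand. The RefSeq table had a start site for 6 of the 7 genes (*Zfhx4* was not matched), and 5 of these 6 genes held the box in at least 1 window. Counted by window rather than by gene, 33.8% of all 32851 windows of this length held it. *Rxrg* has 2 windows, of which the upstream one held the box. Searched on both strands, neither the E-box CACGTG (6.02% of all windows), the D-box TTATGTAA (0.819%) nor the cAMP response element TGACGTCA (1.55%) was among the letters of any member's window. The shorter TGACG, with which the cAMP response element begins, was in *Lhx1* and *Foxd1*, against 17.8% of all windows, and AGGTCA, the core that nuclear receptors bind, was in the downstream start site of *Rxrg*, against 14.0%.

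On GRCm38, *Lhx1* lies on chromosome 11 from 84518284 to 84525535, *Six3* on chromosome 17 from 85613608 to 85629302, *Six6* on chromosome 12 from 72939892 to 72944899 and *Zfhx3* on chromosome 8 from 107942644 to 108961630. *Zfhx4* lies on chromosome 3 from 5218526 to 5415857, *Foxd1* on chromosome 13 from 98354242 to 98359305 and *Rxrg* on chromosome 1 from 167598384 to 167639623. The exons of *Six3* share 106 bases with the antisense gene *Six3os1*, and those of *Six6* share 192 bases with the antisense gene *4930447C04Rik*. Whether the counting used strand is not stated, so reads in those bases cannot be assigned.

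Between 15412981 and 35820945 reads per replicate were counted on genes. Peptide genes that define the SCN were abundant at their highest timepoint, ZT6, with *Vip* at 2756 ± 448 CPM (reads scaled to the normalized library total, SD, n = 3), *Avp* at 454 ± 24.03 and *Grp* at 376 ± 19.4. Their lowest means were 963 ± 188 CPM for *Vip* (ZT14), 5.37 ± 3.02 for *Avp* (ZT22) and 39.2 ± 14.3 for *Grp* (ZT22). Of 15 transcription factor genes of neighbouring hypothalamus, 8 passed the filter, against 18941 of all 30031 genes. The 7 that did not pass included *Otp* and *Nr5a1*. Of 8 markers of neighbouring hypothalamic neurons, 3 were detected in every replicate, with *Trh* at up to 45.4 ± 23.1 CPM (ZT18). The series holds no other tissue, so the enrichment of the 7 genes in the SCN could not be measured here. By the root mean square log2 difference over 14149 genes, the nearest timepoint was ZT22 for ZT2 (0.449), ZT10 for ZT6 (0.780) and ZT18 for ZT14 (0.803), and the next nearest was between 1.00 and 1.22 away. These 3 pairs of timepoints are called clusters here. The study relates the separation of its libraries to timepoint and sequencing batch. From the timing of its clock genes it takes batch effects to be minimal. The batch of each library is not given in the sources used here, so the part of batch was not tested. Steps inside a cluster (ZT6 to ZT10, ZT14 to ZT18 and ZT22 to ZT2) are given beside those between clusters. In bulk tissue, fewer cells of a type and less RNA per cell cannot be told apart.

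Per length, *Lhx1* was the highest of the 7 genes. Its mean over 18 replicates was 44.3 (RPKM, CPM divided by exon length, SD 11.3), above 92.6% of tested genes. *Six3* at 28.0 RPKM (SD 17.8) and *Six6* at 26.7 (SD 15.0) were close to each other, and *Zfhx3* followed with 14.0 (SD 4.73). *Rxrg* had 5.87 RPKM (SD 5.87) and *Zfhx4* 3.12 (SD 0.981). *Foxd1* had 0.358 RPKM (SD 0.163), above only 21.5% of tested genes, and 13 to 75 reads per replicate, so it was barely detected in adult SCN. The spread over all 18 replicates was larger than the gap between *Six3* and *Six6* and between *Rxrg* and *Zfhx4*.

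**Figure D1:**
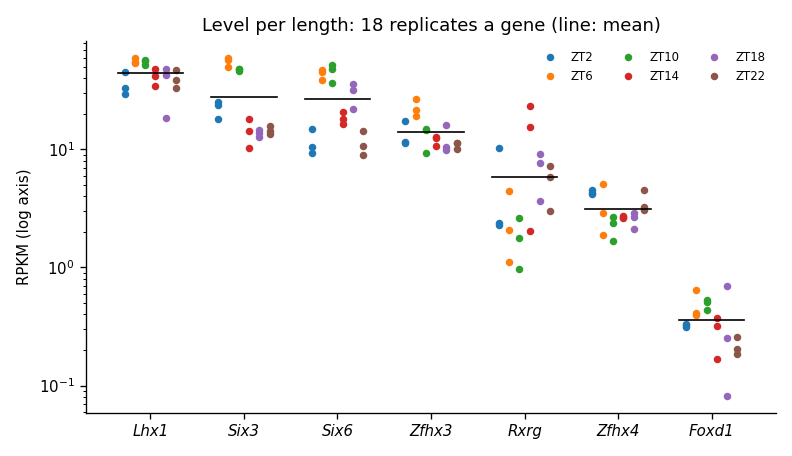
Level per length (RPKM, log axis) of the 7 genes, with a point for each of the 18 replicates, coloured by timepoint, and a line at the mean. The means run from 44.3 for *Lhx1* to 0.358 for *Foxd1*, and the points of *Rxrg* spread the most.

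Over the 6 timepoints, 4 of the 7 genes changed with time in edgeR's quasi-likelihood F-test with Benjamini-Hochberg adjustment (q under 0.05), against 44% of all tested genes. These were *Six3* (q = 6.63e-08), *Six6* (q = 1.66e-06), *Zfhx3* (q = 0.00638) and *Rxrg* (q = 0.0349). *Zfhx4* (q = 0.0646), *Lhx1* (q = 0.138) and *Foxd1* (q = 0.596) did not pass. *Zfhx4* and *Lhx1* lay near the threshold, since DESeq2's likelihood ratio test gave *Zfhx4* an adjusted p = 0.0109 and *Lhx1* an adjusted p = 0.0368. A 24 hr rhythm, meaning the time test and JTK_CYCLE together, was called for 3 of 7 genes, *Six3*, *Six6* and *Zfhx3*, against 29.8% of tested genes. The share of members was above the background for the time test and for rhythm, but with 7 genes chosen by name it is given as a description.

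**Figure D2:**
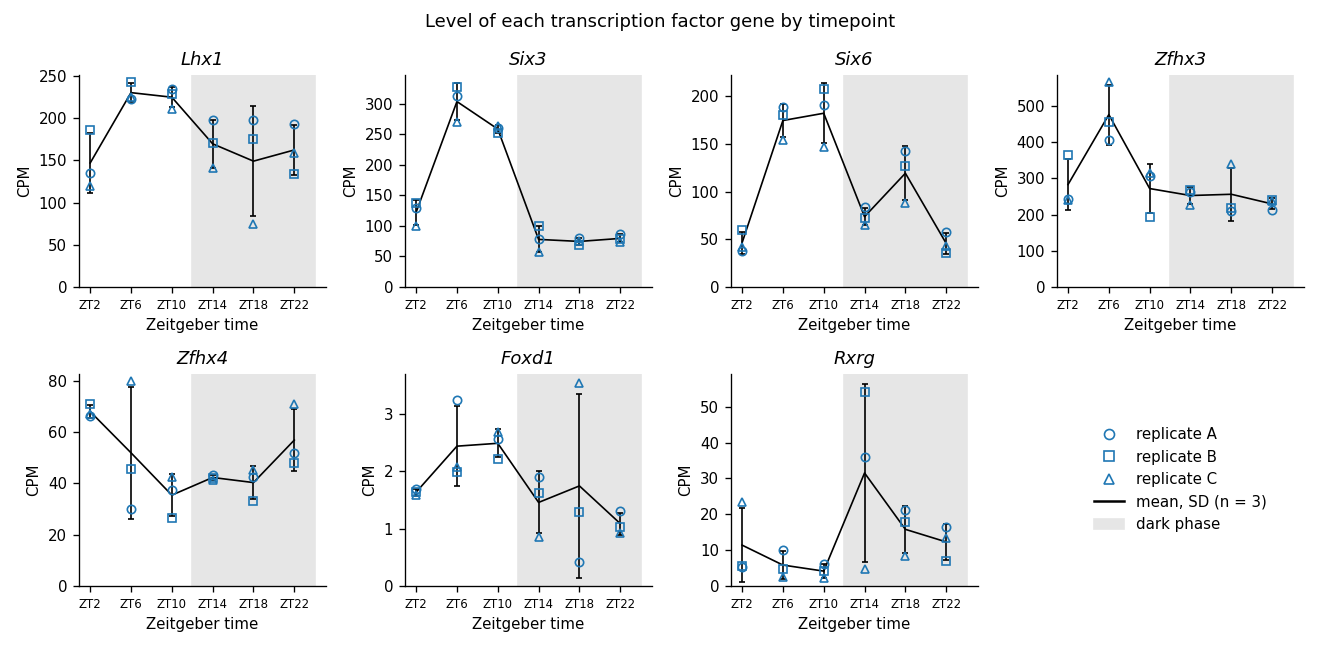
Level of each gene in CPM (y axis from 0) at the 6 timepoints, with replicates A, B and C as open symbols, the mean and SD (n = 3) as a line with bars, and the dark phase in grey. *Six3* and *Six6* stand high at ZT6 and ZT10, *Zfhx3* at ZT6, and *Rxrg* is high in 2 of the 3 ZT14 replicates.

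*Six3* was high at ZT6 and ZT10 and low through the night. In replicates A, B and C it had 130, 138 and 99.2 CPM at ZT2, 313, 327 and 269.9 at ZT6, and 261, 252 and 263 at ZT10. At night it had 78.1, 99.2 and 56.5 CPM at ZT14, 79.7, 69.5 and 74.7 at ZT18, and 86.7, 78.3 and 73.8 at ZT22. All ZT6 and ZT10 replicates lay above all others, and the highest mean, 303 ± 29.9 CPM at ZT6, was 4.06-fold the lowest, 74.6 ± 5.07 at ZT18. In the order of its means, the replicates of ZT6, ZT10 and ZT2 did not overlap with those of the next timepoint, whereas ZT22 overlapped with ZT14 and ZT14 with ZT18. From ZT2 to ZT6 it rose by 1.31 on the log2 scale (SE 0.19, q = 3.35e-05), and from ZT10 to ZT14 it fell by 1.73 (SE 0.19, q = 1.19e-05). Dark minus light gave -1.46 (SE 0.11, q = 8.27e-08). These calls held in 18 of 18 fits made without 1 of the replicates. JTK_CYCLE put its peak at ZT6 (p = 4.78e-05, exact null distribution).

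Inside the clusters *Six3* had smaller differences, none past the threshold. ZT10 minus ZT6 was -0.23 (SE 0.18, q = 0.669) and ZT18 minus ZT14 was -0.06 (SE 0.18, q = 0.942). The cluster of ZT22 and ZT2 is the only one that spans darkness and light. There ZT2 was higher by 0.62 (SE 0.18, unadjusted p = 0.0035, q = 1.00 in edgeR), and its replicates did not overlap with those of ZT22. Of the variance of its 6 timepoint means (log2), 95.0% lay between clusters, against a median of 77.2% over tested genes. Its antisense neighbour *Six3os1* was highest at ZT6 too, with 107 ± 16.05 CPM, and lowest at ZT14, with 58.8 ± 9.46 (q = 0.0295).

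*Six6* was also highest at ZT6 and ZT10 but had a further high at ZT18. The 7 telencephalic excitatory markers, by contrast, summed to 162 ± 67.1 CPM at ZT14 and 58.9 ± 36.02 at ZT18. The 8 markers of neighbouring hypothalamic neurons went up, from 26.6 ± 4.99 CPM at ZT14 to 59.7 ± 27.4 at ZT18. The part of these markers in the *Six6* levels was not tested. Replicates A, B and C had 37.3, 59.7 and 42.2 CPM at ZT2, 189, 181 and 155 at ZT6, and 191, 208 and 147 at ZT10. They had 83.6, 72.4 and 65.4 CPM at ZT14, 143, 127 and 88.3 at ZT18, and 57.9, 36.2 and 43.2 at ZT22. ZT18 thus stood below ZT6 and ZT10 and above ZT14, ZT22 and ZT2, and its replicates overlapped with neither those of ZT6 above nor those of ZT14 below. The means at ZT10, 182 ± 31.4, and ZT6, 175 ± 17.8, were not separated, nor were those at ZT2, 46.4 ± 11.8, and ZT22, 45.8 ± 11.1.

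The steps of *Six6* were a rise of 1.91 from ZT2 to ZT6 (log2, SE 0.23, q = 7.20e-06), a fall at ZT14 minus ZT10 of -1.30 (SE 0.23, q = 0.000836) and a fall at ZT22 minus ZT18 of -1.38 (SE 0.23, q = 0.000351). Dark minus light was -0.62 (SE 0.13, q = 0.0022), and JTK_CYCLE put the peak at ZT10 (p = 0.00224, exact null distribution). The steps and dark minus light were called in 18 of 18 fits without 1 replicate. The ZT18 high lies inside a cluster, where ZT18 minus ZT14 was 0.69 (SE 0.23, q = 0.164). DESeq2 called this difference, with 0.72 and an adjusted p = 0.0316. ZT10 minus ZT6 was 0.06 (SE 0.22, q = 0.953) and ZT2 minus ZT22 was 0.02 (SE 0.23, q = 1.00). The antisense gene *4930447C04Rik* did not pass the time test (q = 0.171), with means from 21.6 ± 7.17 CPM at ZT14 to 45.2 ± 24.8 at ZT6.

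Log2 differences varied with transcript GC content, and these paralogs differ in it, with 53.4% for *Six3* and 43.6% for *Six6*. This held for steps between clusters and inside them, where the median ZT18 minus ZT14 was 0.15 under 40% GC and -0.21 above 60%. Genes of at least 1 CPM with 52 to 56% GC had a median ZT6 minus ZT2 of 0.04, those with 40 to 44% a median of -0.24 and those above 60% a median of 1.76. With a GC trend removed from each library, an alternative added after the values were seen, ZT6 minus ZT2 was 1.46 for *Six3* (q = 0.000136) and 2.35 for *Six6* (q = 3.47e-07), so both rises were at least as large. Markers of other cells moved as well. The 3 GABAergic markers summed to 1520 ± 146 CPM at ZT6 and 981 ± 197 at ZT22, with *Gad1* not past the time test (q = 0.821), and the 6 astrocyte markers to 1868 ± 199 at ZT10 and 4640 ± 585 at ZT2. The part of these cell types in the levels of *Six3* and *Six6* was not tested.

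**Figure D3:**
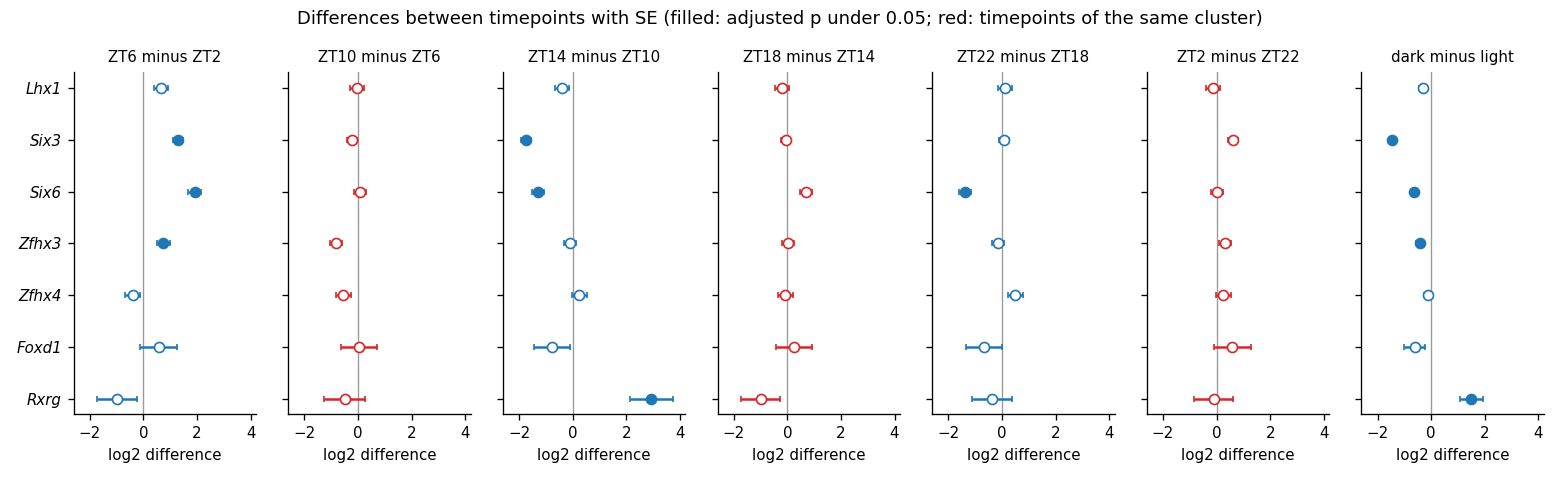
Log2 difference with SE for each gene (rows) in the 6 steps between neighbouring timepoints and in dark minus light (columns), filled where q was under 0.05 and red where both timepoints lie in the same cluster. The filled points are in the columns ZT6 minus ZT2, ZT14 minus ZT10, ZT22 minus ZT18 and dark minus light, and all red points are open.

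The ratio of *Six3* to *Six6* within a library does not depend on scaling between libraries. By day its log2 value was 1.41 ± 0.33 (SD, n = 3) at ZT2, 0.80 ± 0.06 at ZT6 and 0.52 ± 0.29 at ZT10. By night it was 0.05 ± 0.36 at ZT14, -0.65 ± 0.36 at ZT18 and 0.82 ± 0.27 at ZT22. *Six3* had more reads than *Six6* in every replicate of ZT2, ZT6, ZT10 and ZT22, and fewer in every replicate of ZT18. The mean was 0.07 ± 0.70 in the dark and 0.91 ± 0.46 in the light (n = 9 each), a difference of -0.84 (exact permutation test, two-sided, p = 0.0086, adjusted p = 0.0172 over 2 ratios). This exact test takes the 9 replicates of a phase as exchangeable, although they come from 3 timepoints, and over timepoint means it could not go below p = 0.10. The dark timepoint ZT22 lay as high as ZT6 and above ZT10, so the phases did not separate by timepoint. Inside the clusters, the ZT18 replicates (-0.87 to -0.24) lay below those of ZT14 (-0.21 to 0.45) and the ZT2 replicates (1.21 to 1.80) above those of ZT22 (0.58 to 1.11), whereas ZT6 (0.73 to 0.86) and ZT10 (0.27 to 0.84) overlapped. An exact test of 3 against 3 cannot go below p = 0.10, so none was run for these pairs.

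**Figure D4:**
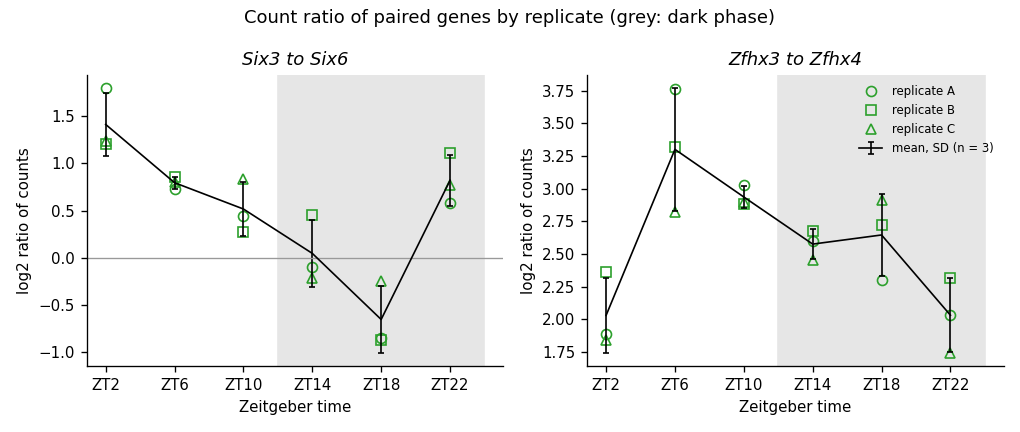
Log2 ratio of counts of *Six3* to *Six6* (left) and of *Zfhx3* to *Zfhx4* (right) at each timepoint, with a symbol per replicate, the mean and SD (n = 3) and the dark phase in grey. The *Six3* to *Six6* ratio runs from 1.41 at ZT2 to -0.65 at ZT18, and the other ratio from 3.30 at ZT6 to 2.03 at ZT2 and ZT22.

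*Lhx1* was steadier than *Six3* or *Six6*. Its replicates A, B and C had 134, 186 and 120 CPM at ZT2 (lowest 119.7), 222, 243 and 225 at ZT6, and 234, 229 and 211 at ZT10. They had 197, 171 and 140.3 CPM at ZT14, 197, 175 and 74.7 at ZT18, and 193, 134 and 159 at ZT22. The ZT6 and ZT10 replicates lay above all others, but the rest overlapped and ZT18 replicate C was far below its fellows. The highest mean was 230.0 ± 11.1 CPM at ZT6 and the lowest 147 ± 34.9 at ZT2, a 1.57-fold range.

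For *Lhx1*, ZT6 minus ZT2 was 0.65 (log2, SE 0.27, q = 0.0711), ZT14 minus ZT10 was -0.41 (SE 0.27, q = 0.335) and dark minus light was -0.30 (SE 0.15, q = 0.178). Inside the clusters the log2 differences were -0.03 for ZT10 minus ZT6, -0.19 for ZT18 minus ZT14 and -0.14 for ZT2 minus ZT22. The time test moved to q = 0.0279 without ZT18 replicate C. With the GC trend removed, *Lhx1* passed the time test (q = 0.00274), with ZT6 minus ZT2 at 0.82 (q = 0.00884), ZT14 minus ZT10 at -0.70 (q = 0.038) and dark minus light at -0.57 (q = 0.00372). JTK_CYCLE alone gave p = 0.042 (exact null distribution) with a peak at ZT10.

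*Zfhx3* had a single high timepoint, ZT6. In replicates A, B and C it had 244, 364 and 239.8 CPM at ZT2, 405, 456 and 566 at ZT6, and 306, 194 and 315 at ZT10. It had 263, 268 and 227 CPM at ZT14, 209.5, 219 and 339 at ZT18, and 212, 239 and 237 at ZT22. All ZT6 replicates lay above those of every other timepoint, while the other timepoints overlapped with their neighbours in the order of means. The ZT6 mean of 476 ± 82.5 CPM was 2.07-fold the lowest, 229 ± 15.2 at ZT22.

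ZT6 minus ZT2 was 0.75 for *Zfhx3* (log2, SE 0.23, q = 0.0162) and dark minus light was -0.43 (SE 0.13, q = 0.0223). ZT10 minus ZT6, inside a cluster, was of like size at -0.81 (SE 0.23, q = 0.298), and DESeq2 gave -0.85 with an adjusted p = 0.046. Correspondingly, 46.0% of the variance of its timepoint means lay between clusters, the lowest share of the 7 genes. The calls were not firm to single libraries. The time test lost its call without ZT6 replicate C (q = 0.0534), ZT6 minus ZT2 without ZT2 replicate A (q = 0.0649), ZT2 replicate C (q = 0.102) or ZT6 replicate C (q = 0.0678), and dark minus light without ZT2 replicate B (q = 0.0539). JTK_CYCLE gave p = 0.0319 (exact null distribution) with a peak at ZT6, and neither a further adjustment over genes (q = 0.0944) nor cosinor regression in limma (q = 0.0825) called the rhythm.

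*Zfhx4* was highest at ZT2, when its replicates were tight at 66.0 to 70.9 CPM, and lowest at ZT10, at 26.4 to 42.3. The ZT6 replicates were spread, with 29.9, 45.7 and 80.1 CPM in A, B and C, so ZT6 overlapped with all other timepoints. From the mean of 68.0 ± 2.60 CPM at ZT2 it ran to 35.4 ± 8.15 at ZT10, a 1.92-fold range. No step passed the threshold, the largest being ZT10 minus ZT6 at -0.55 (log2, SE 0.28, q = 0.48). Without ZT6 replicate C, *Zfhx4* passed the time test (q = 0.00808) and ZT6 minus ZT2 was -0.85 (q = 0.0145), and without ZT6 replicate A it passed the time test as well (q = 0.0129). JTK_CYCLE alone gave p = 0.0319 (exact null distribution) with a peak at ZT2.

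The ratio of *Zfhx3* to *Zfhx4* had a log2 value of 3.30 ± 0.47 (SD, n = 3) at ZT6 and 2.03 ± 0.29 at ZT2, 2.03 ± 0.29 at ZT22, and 2.57 to 2.94 at the others. Dark minus light was -0.34 (2.42 ± 0.36 against 2.75 ± 0.63, n = 9 each), which did not pass the test (exact permutation test, two-sided, p = 0.183, adjusted p = 0.183). *Zfhx3* had more reads in every replicate. The genes' deviations from their timepoint means went together (Pearson r = 0.62 over 18 replicates of the same libraries, given as a description), as did those of *Lhx1* and *Six6* (r = 0.82), and *Lhx1* and *Foxd1* had r = -0.57. The same deviations went against those of the 7 telencephalic excitatory markers in *Lhx1* (r = -0.82) and *Six6* (r = -0.84), and the part of these markers was not tested.

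*Foxd1* was low throughout, with means from 1.09 ± 0.193 CPM at ZT22 to 2.49 ± 0.248 at ZT10. Its ZT18 replicates had 0.416, 1.29 and 3.54 CPM, and these hold both the lowest and the highest value of the gene. No step was called, and the largest log2 difference, ZT14 minus ZT10, was -0.77 (SE 0.68, q = 0.496). Its SE was thus close to the size of the difference. JTK_CYCLE alone gave p = 0.042 (exact null distribution).

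*Rxrg* went the other way from *Six3* and *Six6*, with its highest mean at ZT14, and it was the most variable of the 7 genes between replicates. Replicates A, B and C had 35.9, 54.1 and 4.67 CPM at ZT14, 21.2, 17.8 and 8.36 at ZT18, and 16.5, 6.87 and 13.5 at ZT22. They had 5.26, 5.47 and 23.4 CPM at ZT2, 10.2, 4.74 and 2.56 at ZT6, and 6.02, 4.12 and 2.22 at ZT10. ZT14 replicate C lay within the range of ZT10, and every timepoint overlapped with the next in the order of means. Its biological coefficient of variation in edgeR was 0.61, against a median of 0.24 for genes of at least 10 CPM, and 0.17 for *Six3*, 0.20 for *Six6*, 0.21 for *Zfhx3*, 0.24 for *Lhx1*, 0.25 for *Zfhx4* and 0.55 for *Foxd1*.

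ZT14 minus ZT10 was 2.94 for *Rxrg* (log2, SE 0.79, q = 0.0158) and dark minus light was 1.49 (SE 0.43, q = 0.0187). Dark minus light was called in 18 of 18 fits without 1 replicate, ZT14 minus ZT10 in 15 and the time test in 11. ZT14 minus ZT10 was lost without ZT14 replicate B (q = 0.0737), ZT10 replicate B (q = 0.0632) or ZT10 replicate C (q = 0.0729). The time test was lost without ZT14 replicate B (q = 0.152), ZT14 replicate A (q = 0.092), ZT10 replicate C (q = 0.077), ZT10 replicate B (q = 0.0727), ZT6 replicate B (q = 0.0602), ZT6 replicate C (q = 0.0513) or ZT22 replicate C (q = 0.0501). Inside the clusters none was called, with -0.995 (SE 0.74) for ZT18 minus ZT14, -0.50 (SE 0.75) for ZT10 minus ZT6 and -0.11 (SE 0.73) for ZT2 minus ZT22. JTK_CYCLE did not pass (p = 0.144, exact null distribution).

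Among the genes whose pattern was most like that of *Rxrg* were *Scn4b*, a sodium channel subunit, and *Drd2*, the D2 dopamine receptor, both abundant in striatal projection neurons. A list of 10 striatal markers was therefore added after these values were seen, and 9 of them were in the count table, including *Scn4b* and *Drd2* themselves. The 9 summed to 1072, 1472 and 186 CPM in ZT14 replicates A, B and C, and to between 125 and 473 CPM in the other 15 replicates. Thus both ZT14 replicates with the most *Rxrg* also had the most striatal marker reads, and ZT14 replicate C had neither. *Scn4b* had 277 ± 204 CPM at ZT14 and 12.1 ± 3.24 at ZT10, and *Drd2* 12.2 ± 12.9 and 0.291 ± 0.504. None of the 9 markers was at 0 in every replicate, 6 were detected in all 18, and 5 passed the time test, against 44% of all tested genes. Over the 18 replicates *Rxrg* had a Pearson r of 0.74 with the striatal markers (*Scn4b* and *Drd2* among them) and 0.68 with 6 oligodendrocyte markers. For deviations from timepoint means these were 0.73 and 0.36. Deviations of *Six3* (r = 0.65) and *Foxd1* (r = 0.53) also went with those of the striatal markers, and the remaining members had r from -0.05 to 0.23. Over the 18 replicates, r with the striatal markers was -0.25 for *Six3* and 0.14 for *Foxd1*. The oligodendrocyte markers summed to 5248 ± 602 CPM at ZT14, 5409 ± 572 at ZT18 and 1833 ± 195 at ZT10. The part of striatal or oligodendrocyte RNA in the *Rxrg* result was not tested, nor was that of striatal RNA in the levels of *Six3* and *Foxd1*.

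**Figure D5:**
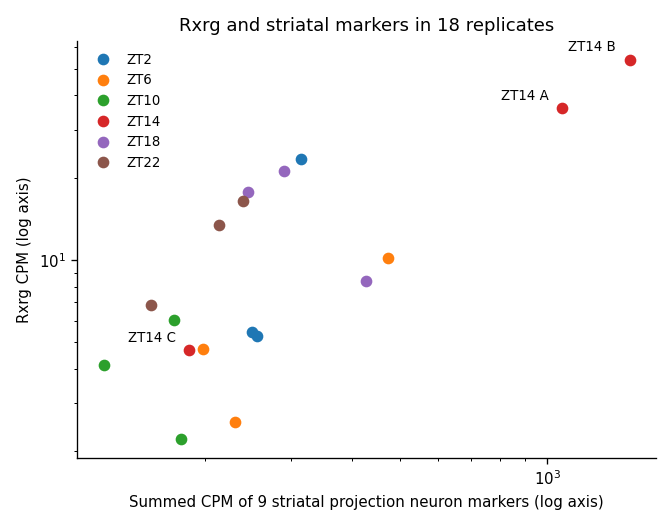
*Rxrg* CPM (y, log axis) against the summed CPM of 9 striatal projection neuron markers (x, log axis) in the 18 replicates, coloured by timepoint, with the ZT14 replicates named. ZT14 A and B, at 1072 and 1472 CPM of markers, stand apart from the other 16 replicates at 125 to 473.

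Side by side, 3 of 7 genes were called between ZT2 and ZT6, against 33.8% of tested genes, and all 3 (*Six3*, *Six6* and *Zfhx3*) rose, against 17.5%. Between ZT10 and ZT14, 3 of 7 were called, against 16.8% of tested genes, with *Six3* and *Six6* lower, against 7.52%, and *Rxrg* higher. Between ZT18 and ZT22 only *Six6* was called, against 18.1%. Between dark and light, 4 of 7 were called, against 23.8%, and 3 of them (*Six3*, *Six6* and *Zfhx3*) were lower in the dark, against 9.56%. The median log2 difference over the 7 genes was 0.65 for ZT6 minus ZT2, where all tested genes had -0.03, and -0.43 for dark minus light, where all tested genes had 0.13.

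Inside the clusters, none of the 7 genes was called by edgeR. The background was 0.0475% of tested genes for ZT10 minus ZT6, 0.57% for ZT18 minus ZT14 and 0.0317% for ZT2 minus ZT22. Before adjustment, at a p under 0.05 in edgeR, *Zfhx3* passed for ZT10 minus ZT6, *Six6* for ZT18 minus ZT14 and *Six3* for ZT2 minus ZT22, as did 2042, 2564 and 680 of all tested genes.

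The genes most like each member were named by Pearson r of log2 CPM over the 18 replicates, which share libraries and clusters, so r is a description. *Six3* was nearest to *Tceal9* (r = 0.96), *Sox1* (0.96) and *Pter* (0.95), and *Sox1*, a SOX-family transcription factor of neural cells, ran from 26.3 ± 6.03 CPM at ZT14 to 90.9 ± 20.5 at ZT6. *Six6* was nearest to *H2afv* (r = 0.96), *Bex2* (0.96) and *Frs3* (0.96), of which *Bex2* went from 166 ± 32.1 CPM at ZT22 to 2058 ± 426 at ZT10. *Zfhx3* was nearest to *Sh3rf1* (r = 0.92), *Pdzd8* (0.89) and *Lgr4* (0.88). *Lhx1* was nearest to *Lman1* (r = 0.93), *Ilkap* (0.91) and *Rrm2b* (0.90), none of which passed the time test.

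*Zfhx4* was nearest to *Far1* (r = 0.90), *Rabgap1l* (0.89) and *Rictor* (0.88), all highest at ZT2 and lowest at ZT10. *Foxd1* was nearest to *Tram1* (r = 0.86), *Lmo2* (0.80) and *Lpcat1* (0.80), and *Rxrg* to *Serpina11* (r = 0.88), *Scn4b* (0.87) and *Drd2* (0.86). Among the members themselves the highest r were those of *Six3* with *Six6* (0.67), *Lhx1* (0.64), *Zfhx3* (0.63) and *Foxd1* (0.62) and of *Lhx1* with *Six6* (0.63), and the lowest were *Six6* with *Zfhx4* (-0.61) and *Six3* with *Rxrg* (-0.57).

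Of 10 partners of LIM-homeodomain proteins, all tested, 7 changed with time, against 44% of all tested genes, and 7 were called between ZT2 and ZT6, against 33.8% (4 higher and 3 lower, median 0.09). *Ldb2*, *Ssbp3* and *Lmo2* did not pass the time test (q = 0.19, 0.327 and 0.662). *Ldb1*, the adaptor that joins LIM-homeodomain proteins into larger complexes, went from 9.58 ± 1.14 CPM at ZT22 to 44.5 ± 12.5 at ZT6 (q = 7.63e-07). *Ssbp2* and *Ssbp4* encode single-stranded DNA-binding partners of Ldb1 and went opposite ways. *Ssbp4* had 0.803 ± 0.262 CPM at ZT2 and 25.0 ± 4.26 at ZT6 (q = 1.18e-07), whereas *Ssbp2* had 236 ± 28.6 and 89.6 ± 15.1 (q = 5.20e-06). *Lmo1*, a LIM-only protein, rose from 0.597 ± 0.372 CPM at ZT2 to 26.4 ± 3.87 at ZT10 (q = 1.15e-06).

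Of 15 relatives of *Six3* and *Six6* and genes for their Eya, Dach and Groucho partners, all tested, 5 changed with time, against 44% of all tested genes, and none was called between dark and light in edgeR, against 23.8% (median 0.22). The paralogs *Six2* and *Six4* were low, with highest means of 0.338 ± 0.242 and 1.74 ± 1.22 CPM. The Groucho-related gene *Aes* had its highest mean at ZT6, as *Six3* did, with 153 ± 25.1 CPM against 41.9 ± 2.499 at ZT2 (q = 2.38e-07). Of the Groucho corepressors, *Tle1* was highest at ZT14 with 20.6 ± 0.289 CPM (q = 0.019), *Tle4* at ZT2 with 184 ± 29.0 (q = 0.032) and *Tle2* at ZT6 with 3.91 ± 1.83 (q = 0.00443).

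Of 15 nuclear receptor genes that pair with or resemble *Rxrg*, 14 were tested and 6 changed with time, a share close to the 44% of all tested genes, with 5 higher at ZT6 than at ZT2, against 17.5%, and none lower (median 0.96). The part of transcript GC content in this shift was not tested. *Rxra* (at most 32.0 ± 6.96 CPM, at ZT14) and *Rxrb* (at most 32.1 ± 13.2, at ZT18, q = 0.00211) had highest means 2.86-fold and 3.31-fold their lowest, against 7.66-fold for *Rxrg*. *Thra*, a thyroid hormone receptor, went from 63.0 ± 15.1 CPM at ZT2 to 234 ± 31.2 at ZT6 (q = 2.42e-06). *Nr1h2*, a liver X receptor, went from 8.995 ± 2.90 CPM at ZT2 to 62.3 ± 2.29 at ZT10 (q = 4.85e-05). *Nr4a1*, which is induced by neuronal activity, was highest at ZT14, as *Rxrg* and *Rxra* were, at 56.5 ± 22.4 CPM at ZT14 against 10.1 ± 0.676 at ZT10 (q = 0.00039).

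Of 22 other transcription factor genes of SCN and anterior hypothalamus, 21 were tested and 14 changed with time, against 44% of all tested genes. At ZT6, 12 were higher than at ZT2, against 17.5%, and 3 lower (median 1.24), and in the dark 11 were lower, against 9.56%, and 4 higher (median -0.56). Genes above 60% GC had a median ZT6 minus ZT2 of 1.76, and the part of GC content in these list counts was not tested. *Sox2* went from 23.3 ± 3.46 CPM at ZT2 to 155 ± 57.8 at ZT6 (q = 2.03e-07) and *Dlx6*, a homeobox gene of GABAergic neurons, from 6.64 ± 1.69 at ZT22 to 32.5 ± 11.9 at ZT6 (q = 1.30e-05). *Rora* went from 156 ± 18.2 CPM at ZT18 to 554 ± 88.9 at ZT6 (q = 5.33e-07). *Rorb* went the other way, from 1118 ± 172 CPM at ZT2 to 480 ± 67.8 at ZT6 and 257 ± 63.2 at ZT10 (q = 8.84e-06). *Tshz1* was the only one called inside a cluster, with 29.6 ± 1.66 CPM at ZT14 and 13.1 ± 3.22 at ZT18 (log2 -1.17, SE 0.24, q = 0.0352). All 10 SCN peptide and receptor genes changed with time, against 44%, and 5 were lower in the dark, against 9.56%, and 2 higher. *Nms* was among those lower in the dark, with 422 ± 69.7 CPM at ZT10 and 93.8 ± 18.1 at ZT14. *Prok2* was the only peptide or receptor gene called inside a cluster, against 0.0317% of tested genes for ZT2 minus ZT22. It had 8.42 ± 5.27 CPM at ZT22 and 128 ± 46.3 at ZT2 (log2 3.93, SE 0.50, q = 0.00741). Of the 8 tested transcription factor genes of neighbouring hypothalamus only *Foxb1* changed with time (q = 0.0331), against 44% of all tested genes, between 0.0941 ± 0.0978 CPM at ZT14 and 1.71 ± 0.284 at ZT10.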

How the data were processed

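The authors captured SCN tissue by laser, amplified the RNA, mapped reads on mm10 by GSNAP and obtained gene counts from HTSeq 0.5.4p1. The deposited counts are whole reads per Ensembl gene, not normalized, with technical replicates combined, and no column was left unused (0 columns). The deposited normalized signal is counts divided by a size factor per column (the methods name DESeq2), and 100% of its values were whole multiples of 1 step (tolerance 0.01), so reads were recovered from it as an alternative. The tables disagreed most at ZT6 and ZT10, where 36.8% to 47.1% of shared genes had identical reads, against 94.7% to 96.3% at the other timepoints. For *Rxrg* recovered reads were 78.7% to 87.0% of the counts at ZT6 and ZT10 and 100% elsewhere. For *Six6* they were 95.4% to 99.8% over all replicates, with 0 of 18 identical.

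A gene was tested if over 6 replicates held 1 read or more (18941 genes). TMM-scaled CPM came from edgeR 4.0.16 (R 4.3.3), as did the quasi-likelihood tests and Benjamini-Hochberg q values over all tested genes, with a threshold of 0.05. JTK_CYCLE (24 hr, 6 lags, exact null distribution, Bonferroni) was rewritten with pandas 2.3.3 and numpy 2.4.6 under Python 3.11.15. The exact permutation tests of the ratios used scipy 1.17.1. DESeq2 1.42.0 and limma 3.58.1 served as alternatives, and the tests were checked on simulated data. RPKM is CPM per kilobase of GENCODE M21 exons, and log2 CPM for correlations had 2 prior counts. Counts per replicate were between 15412981 and 35820945, and precision is given by the spread between pools, as SD and SE.

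All 7 members are named, with the 3 genes of at least 1 CPM most like each, up to 4 genes per related list with the smallest q and any called inside a cluster, and genes overlapping a member. The members and lists were chosen with earlier results of these data known, and the striatal list and GC alternative after values were seen. Whether counting used strand is not given in the sources used here. Other lists of markers covered telencephalic and hypothalamic neurons, oligodendrocytes, microglia, endothelial and ependymal cells.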

Additional observations from a re-analysis of the deposited data

How the results depend on the processing

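Under 7 other settings (DESeq2, its size factors, upper-quartile normalization, both filters, the replicate block and recovered reads) and with a GC trend removed, which was chosen after seeing the data, *Six3* and *Six6* kept every call named above, and the number of members called stayed at 4 for dark minus light except with the GC trend removed (5). The members called by the time test numbered 6 with DESeq2, and those called rhythmic 2 with cosinor regression or with a further adjustment over genes, which left 3657 rhythmic genes. *Zfhx4* passed the time test with DESeq2 size factors (q = 0.0409), upper-quartile normalization (0.0206), no filter (0.0285) and at least 10 counts in every replicate (0.048), but had q = 0.258 with the GC trend removed, where its ZT6 minus ZT2 turned to 0.084. With recovered reads, which differ most at ZT6 and ZT10, *Lhx1* passed the time test (q = 0.0318), ZT6 minus ZT2 was 1.47 for *Six3* and 2.11 for *Six6*, and ZT14 minus ZT10 was 2.97 for *Rxrg* (q = 0.0135).

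Genes called inside clusters moved most. For ZT10 minus ZT6 they numbered 252 with DESeq2 (1 member), 4 with at least 10 counts, 16 with no filter and 2 with the replicate block. For ZT18 minus ZT14 they numbered 844 with DESeq2 (1 member), 71 with upper-quartile normalization and 245 with at least 10 counts. For ZT2 minus ZT22 they numbered 42 with DESeq2, 10 with its size factors, 16 with at least 10 counts and 14 with no filter. With the replicate block, *Rxrg* lost the time test (q = 0.0549), *Zfhx4* gained it (q = 0.0371) and *Lhx1* gained ZT6 minus ZT2 (q = 0.0453). The letters did not pair the samples (median correlation of deviations 0.002, from -0.27 to 0.10). The likeness of *Six3* with *Tceal9* was 0.86 as Spearman's rho.

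Leaving out 1 replicate gave 7456 to 9129 genes and 3 to 5 members for the time test. The range was 5217 to 7160 genes and 2 to 4 members for ZT6 minus ZT2, 2 to 50 genes and 0 members for ZT10 minus ZT6, 1993 to 3937 genes and 2 to 3 members for ZT14 minus ZT10, and 0 to 225 genes and 0 members for ZT18 minus ZT14. It was 2097 to 4104 genes and 1 member for ZT22 minus ZT18, 1 to 17 genes and 0 members for ZT2 minus ZT22, 3624 to 5270 genes and 3 to 4 members for dark minus light, and 4829 to 6450 genes and 2 to 4 members for rhythm. The *Six3* to *Six6* difference stayed between -0.97 and -0.72 and that of *Zfhx3* to *Zfhx4* between -0.45 and -0.21. The causes were not tested.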

Other observations

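Markers of the other cell types were also compared over time. The 7 telencephalic excitatory markers summed to between 29.5 ± 5.19 CPM at ZT6 and 165 ± 94.2 at ZT22, the 8 markers of neighbouring hypothalamic neurons to between 20.5 ± 4.77 at ZT2 and 59.7 ± 27.4 at ZT18, and the 6 pan-neuronal markers to between 3952 ± 663 at ZT6 and 8478 ± 458 at ZT22. The 6 oligodendrocyte markers had 1833 ± 195 CPM at ZT10 and 5409 ± 572 at ZT18, and the 6 microglial markers 155 ± 12.9 at ZT10 and 243 ± 31.9 at ZT22. The 4 endothelial markers had 75.5 ± 10.2 CPM at ZT6 and 118 ± 43.4 at ZT2, and the 4 ependymal markers 16.95 ± 6.12 at ZT14 and 41.1 ± 14.4 at ZT22. *Six3* and *Six6* were high where the glial sums were low, at ZT6 and ZT10, but both were low at ZT22, when the pan-neuronal sum was highest. Most of that sum was *Snap25*, with 4987 ± 751 CPM at ZT22. The other pan-neuronal markers were highest at ZT14 (*Syt1*, *Rbfox3*, *Tubb3* and *Eno2*) or at ZT2 (*Stmn2*). The part of these cell types in the members' levels was not tested.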
